A study of Mus musculus with 7 samples.

Results

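The genes described here are 9 enzymes with which the liver makes glucose, releases it and stores it as glycogen: Pck1, Fbp1, G6pc, G6pc3, Ugp2, Gys2, Gbe1, Pygl and Amy1. They were chosen by name, and every array probe set annotated with exactly 1 of these symbols was taken, which gave 15 of the 45101 probe sets. Ugp2 had 5 probe sets, Pck1 had 3 and each of the other 7 genes had 1. At the gene level, where the brightest probe set by its mean of all 7 arrays stands for its gene, they are 9 of 18193 genes.

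Liver RNA of 7 mice was measured on Affymetrix expression arrays, 1 array per animal. The labels give 3 of them as wild type, here WT-103, WT-104 and WT-27, and the other 4 as knockout for the microRNA gene mir-122, here KO-90, KO-91, KO-94 and KO-03, with the number of the animal in each name. All were 2 months old and of B6/129 background. Labels that would give the feeding state, the hour of collection, the sex or the breeding of the animals, or the way the gene was deleted, were not used here. miR-122 makes up most of the microRNA in hepatocytes, and the comparison shows how these transcripts differ when the gene is missing. The deletion itself was not checked here, because the arrays were read only through named messenger RNA probe sets. KO-03 lay closest to wild type, with a mean correlation across probe sets of 0.984 with the wild-type arrays and 0.983 with the other knockout arrays, and KO-94 lay farthest, at 0.969 and 0.982. Gene calls that turn on either array are given with and without it.

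Gluconeogenesis makes glucose from lactate, amino acids and glycerol, and the liver uses it to keep blood glucose up between meals. Pck1 and Fbp1 catalyse steps that glycolysis cannot run in reverse, and glucose phosphatase frees the sugar for export. Glycogen is the branched glucose store of the liver: Ugp2 makes the activated sugar, Gys2 adds it to the chain, Gbe1 puts in the branches, and Pygl takes glucose units off again when glucagon or adrenaline calls for them.

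In knockout livers the amylase Amy1 and the glycogen branching enzyme Gbe1 fell, and the widely expressed glucose phosphatase G6pc3 rose. Amy1 was 3.52-fold lower, Gbe1 2.22-fold lower and G6pc3 1.65-fold higher. The other 6 genes did not pass the test. Of these, Pygl, Gys2 and Ugp2 had differences below 0 and Pck1, G6pc and Fbp1 differences above 0. The test was limma on the log2 values, with a Benjamini-Hochberg adjusted p under 0.05 over all 18193 genes. By this rule 0.951% of all genes were lower and 2.58% were higher in knockout, against 2 and 1 of the 9 genes here. All knockout arrays lay below all wild-type arrays in 4 of the 9 genes, Amy1, Gbe1, Pygl and Ugp2, as in 6.62% of all genes. They lay above all wild-type arrays in 1 gene, G6pc3, as in 9.15% of all genes. Among the 15 probe sets, each tested on its own over all 45037, the same 3 genes passed: 2 probe sets were lower, as were 0.320% of all probe sets, and 1 was higher, as were 1.29%. The median difference, knockout minus wild type, was -0.42 over the 9 genes and 0.01 over all genes on the log2 scale. In this bulk RNA, fewer cells of a type and less RNA per cell cannot be told apart.

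**Figure D1:**
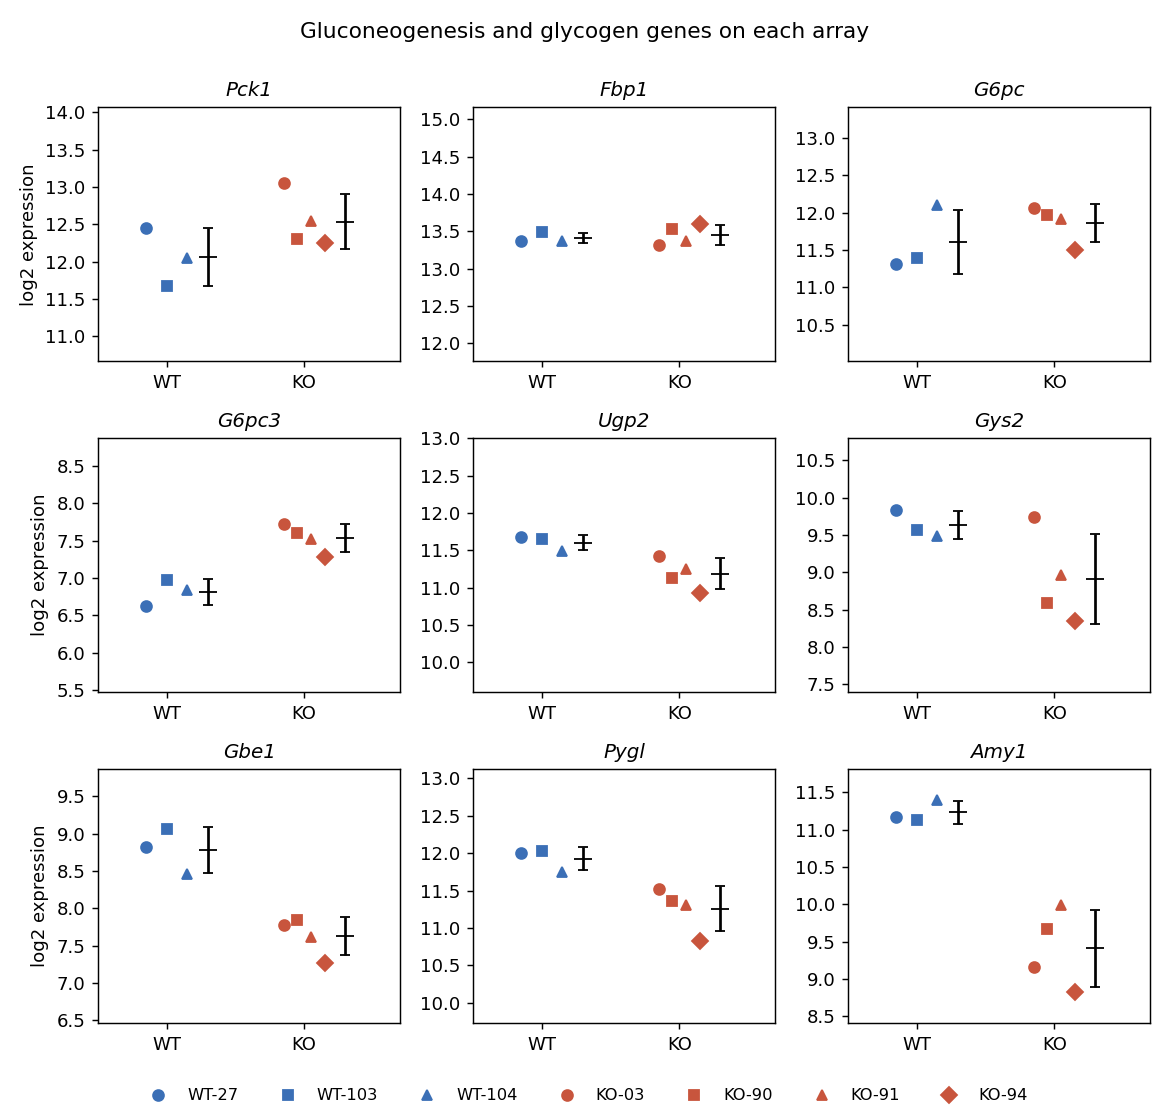
Log2 expression of the 9 genes on each array (y axis; the same span in every panel, not starting at 0) by genotype (x axis), with symbols for single animals and black marks for the group mean and SD. The knockout and wild-type arrays do not overlap for Amy1, Gbe1, Pygl, Ugp2 and G6pc3, and they overlap for Pck1, Fbp1, G6pc and Gys2.

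The steps that make glucose come first. Pck1 encodes the cytosolic carboxykinase that turns oxaloacetate into phosphoenolpyruvate, and its transcription is a classic readout of fasting, glucagon and insulin. Its brightest probe set read 12.45, 11.68 and 12.05 on WT-27, WT-103 and WT-104, against 13.05, 12.30, 12.54 and 12.24 on KO-03, KO-90, KO-91 and then KO-94. The groups overlapped, since WT-27 lay above KO-90 and KO-94. The difference of 0.47 ± 0.23 (SE) did not pass (limma adjusted p = 0.359), and its 95% confidence interval ran from -0.05 to 1.002. A second probe set of Pck1 read 11.67, 10.33 and 11.41 in wild type and 12.41, 12.35, 11.96 and 11.97 in knockout, in the same order of animals. Here the groups did not overlap, as in 7.25% of all probe sets for knockout above wild type, and WT-103 was by far the lowest array. The difference of 1.04 ± 0.30 (SE) did not pass either over the 45037 probe sets tested (limma adjusted p = 0.156). The last Pck1 probe set lay between 3.35 and 4.19 on all 7 arrays. That is under the floor for levels, taken as the highest of 27 bacterial control probe sets on each array, which lay between 4.71 and 5.23.

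Fbp1, the fructose bisphosphatase that acts late in the same pathway, had the smallest difference of the 9. It read 13.38, 13.49 and 13.37 in WT-27, WT-103 and WT-104, against 13.32, 13.53, 13.36 and 13.60 in KO-03, KO-90, KO-91 and then KO-94. The groups overlapped. The difference was 0.04 ± 0.11 (SE), with an interval from -0.22 to 0.30 (limma adjusted p = 0.903).

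Glucose leaves the hepatocyte only after its phosphate is removed. G6pc is the catalytic subunit that does this in liver and kidney, and it is induced by fasting together with Pck1. It read 11.32, 11.40 and 12.10 on WT-27, WT-103 and WT-104, with WT-104 well above the other wild-type arrays. The knockout arrays KO-03, KO-90, KO-91 and then KO-94 read 12.07, 11.97, 11.91 and 11.49, all within the wild-type range. The difference of 0.25 ± 0.21 (SE) did not pass (limma adjusted p = 0.627), with an interval from -0.23 to 0.74.

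G6pc3 is the phosphatase of the same family that is expressed in most tissues, and it is best known for its need in neutrophils. It read 6.62, 6.97 and 6.85 on the wild-type arrays and 7.72, 7.61, 7.53 and 7.28 on the knockout arrays, in the same order of animals. Every knockout array lay above every wild-type array, with a gap of 0.31 between KO-94 and WT-103. The difference was 0.72 ± 0.14 (SE), with an interval from 0.41 to 1.04 (limma adjusted p = 0.0278). Without WT-27, WT-103, WT-104, KO-90 or KO-91 the call was lost, at adjusted p up to 0.107, and it was also lost with renewed quantile normalization (limma adjusted p = 0.0528). The difference itself stayed between 0.63 and 0.81 in the fits that left out 1 array. Over all probe sets (limma adjusted p = 0.0439) the call was lost in 9 of 14 alternatives, at adjusted p up to 0.160, among them without KO-03 (limma adjusted p = 0.0527) and with a trended prior (limma adjusted p = 0.0608).

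Promoter sequences from RefSeq (build GRCm38.p6) are shown for the glucose phosphatases and Pck1 because G6pc and Pck1 are the textbook hormone-driven genes of the pathway and G6pc3 is the phosphatase that passed the test. They are the 250 bases before the annotated start, written 5′ to 3′ on the gene's strand, and of the 9 genes 8 had an entry. Capitals mark matches, on either strand, to 4 motifs. The letters TATAAA were searched for the box that binds the general initiation factor, here called the TATA box. The core of a cyclic AMP response element was searched as TGACG, the E-box as CACGTG and the GC box as GGGCGG. The response element core and the E-box can overlap. Among all 32851 promoter windows of this length in the table, 12.4% hold the TATA box letters, 17.8% the response element core, 6.02% the E-box and 32.7% the GC box.
G6pc (chr11:101367466-101367715, plus strand): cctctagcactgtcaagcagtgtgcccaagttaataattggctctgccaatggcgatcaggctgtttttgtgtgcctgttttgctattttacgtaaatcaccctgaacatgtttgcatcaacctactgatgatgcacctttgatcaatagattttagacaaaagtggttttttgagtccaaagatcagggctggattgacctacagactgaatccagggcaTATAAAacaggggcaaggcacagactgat
Pck1 (chr2:173152823-173153072, plus strand): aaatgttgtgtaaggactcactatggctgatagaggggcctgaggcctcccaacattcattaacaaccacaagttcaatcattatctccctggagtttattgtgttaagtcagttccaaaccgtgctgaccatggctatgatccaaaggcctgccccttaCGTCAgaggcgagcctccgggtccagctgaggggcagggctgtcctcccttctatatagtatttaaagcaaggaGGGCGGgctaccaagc
G6pc3 (chr11:102189449-102189698, plus strand): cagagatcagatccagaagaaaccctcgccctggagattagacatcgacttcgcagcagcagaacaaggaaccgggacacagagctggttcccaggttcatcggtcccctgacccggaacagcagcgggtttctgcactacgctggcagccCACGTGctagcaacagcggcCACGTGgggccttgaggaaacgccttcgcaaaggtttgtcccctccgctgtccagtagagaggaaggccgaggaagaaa
The G6pc window holds TATAAA from 29 to 24 bases before the start. The Pck1 window holds TGACG, on the opposite strand, from 90 to 86 bases before it, inside the letters of the response element for which this promoter is known, and GGGCGG from 16 to 11 bases before it. The G6pc3 window holds CACGTG at 2 places, from 99 to 94 and from 79 to 74 bases before the start, and 0.429% of all windows hold it at 2 or more. A match of letters is a description of the sequence, and no factor's binding was measured here.

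Of the 3 enzymes that build glycogen, Gbe1 fell, and Ugp2 and Gys2 had differences below 0 that did not pass. Ugp2 makes UDP-glucose, the sugar donor for glycogen and for glucuronidation. Its brightest probe set read 11.67, 11.65 and 11.48 on WT-27, WT-103 and WT-104, against 11.43, 11.13, 11.25 and 10.93 on KO-03, KO-90, KO-91 and then KO-94. All knockout arrays were below all wild-type arrays, by a gap of 0.06 between KO-03 and WT-104. The difference of -0.42 ± 0.14 (SE) did not pass (limma adjusted p = 0.160). The 5 probe sets of Ugp2 gave differences from -0.83 to -0.42, all below 0, and in 4 of them the groups did not overlap, as in 5.53% of all probe sets for knockout below wild type. The one with the largest difference read 9.30, 9.53 and 9.34 in wild type and 8.72, 8.45, 8.88 and 8.19 in knockout. At -0.83 ± 0.17 (SE) it missed the threshold among all probe sets (limma adjusted p = 0.0526), and it passed in 5 of 14 alternatives. These were the robust prior, array weights, median centring, a filter at a mean of 6 and the fit without KO-03, at limma adjusted p from 0.0340 to 0.04999. These 5 probe sets measure the same 7 RNA samples and are not independent of each other.

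**Figure D2:**
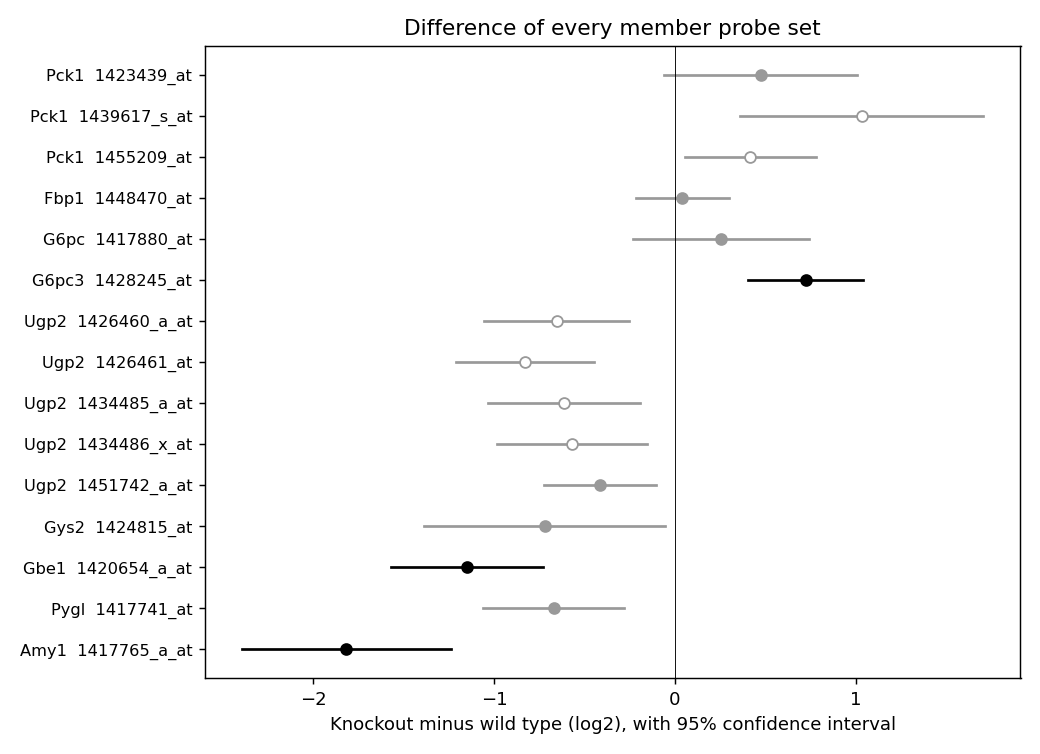
Knockout minus wild-type difference on the log2 scale (x axis) of each of the 15 probe sets (y axis), with its 95% confidence interval from limma. Filled points are the probe sets used for their gene, open points the others, and black marks those that passed limma over all probe sets at an adjusted p under 0.05: Amy1, Gbe1 and G6pc3.

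Gys2 is the liver form of glycogen synthase. It read 9.84, 9.56 and 9.49 on WT-27, WT-103 and WT-104. On the knockout arrays it read 9.74 on KO-03 but 8.59, 8.96 and 8.35 on KO-90, KO-91 and KO-94. The groups overlapped because KO-03 lay inside the wild-type range, while the other 3 knockouts lay below it. The difference of -0.72 ± 0.29 (SE) did not pass (limma adjusted p = 0.258), with an interval from -1.38 to -0.06. Without KO-03 it was -0.99 and passed (limma adjusted p = 0.0156).

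Gbe1, the branching enzyme, fell. Loss of this enzyme causes a glycogen storage disease in people, with long unbranched chains. It read 8.82, 9.06 and 8.45 on WT-27, WT-103 and WT-104, against 7.78, 7.84, 7.62 and 7.27 on KO-03, KO-90, KO-91 and then KO-94. The groups were separated by 0.61, from KO-90 to WT-104. Its wild-type mean was 8.78 ± 0.31 (SD, n = 3) and its knockout mean 7.63 ± 0.26 (SD, n = 4). The difference was -1.15 ± 0.18 (SE), with an interval from -1.57 to -0.73 (limma adjusted p = 0.0131). By the size of its fall it ranked 87 of the 18193 genes. The call was lost without WT-27 or without WT-103, at limma adjusted p up to 0.0705, and in the fit over all probe sets also without KO-91, at adjusted p up to 0.109. The difference stayed between -1.31 and -1.01 in all 7 fits that left out 1 array.

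Glycogen is broken down mainly by phosphorylase. Pygl, its liver form, read 12.00, 12.03 and 11.75 on WT-27, WT-103 and WT-104, against 11.52, 11.36, 11.31 and 10.83 on KO-03, KO-90, KO-91 and then KO-94. The groups did not overlap, with a gap of 0.22. The difference of -0.67 ± 0.17 (SE), a 1.59-fold lower level, did not pass (limma adjusted p = 0.0733), with an interval from -1.06 to -0.28. It passed without KO-03, at -0.76 (limma adjusted p = 0.0362), and with array weights (limma adjusted p = 0.0206).

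Amy1 had the largest difference of the 9. It encodes the amylase of saliva and liver, which cuts the chains of starch and glycogen from within. Amy1 read 11.17, 11.12 and 11.40 on WT-27, WT-103 and WT-104, against 9.16, 9.68, 9.99 and 8.83 on KO-03, KO-90, KO-91 and then KO-94. Every knockout array lay at least 1.14 below every wild-type array. Its wild-type mean was 11.23 ± 0.15 (SD, n = 3) and its knockout mean 9.41 ± 0.52 (SD, n = 4). The difference was -1.82 ± 0.25 (SE), with an interval from -2.39 to -1.25 (limma adjusted p = 0.00707). By the size of its fall it ranked 17 of the 18193 genes. The call held in each of the 16 alternative gene fits, at limma adjusted p up to 0.0370. In the stricter fit over all probe sets it was lost when any 1 of the 3 wild-type arrays was left out, at limma adjusted p up to 0.0635.

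A further probe set is annotated with both Amy1 and Rnpc3 and was no member. Its wild-type mean was 4.82 ± 0.71 (SD, n = 3) and its knockout mean 3.997 ± 0.64 (SD, n = 4), and 2 wild-type and all 4 knockout arrays did not exceed the floor. The probe set annotated with the 5 pancreatic amylase genes averaged 2.83 in wild type and 2.71 in knockout, under the floor on all 7 arrays. Of 8 measured marker genes of pancreatic acinar cells, 6 also did not exceed the floor on any array, 0 passed the limma test and 1 had an unadjusted p under 0.05, as had 16.4% of all genes. Their summed linear level was 206 to 228 in wild type and 193 to 229 in knockout.

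Amy1 is known for separate promoters that serve salivary gland and liver, and RefSeq lists 2 starts, 2988 bases apart. Both are shown because the probe set is not tied here to either start, so the fall cannot be assigned to one. Gbe1, the other gene that fell, is shown beside them. Capitals again mark the same 4 motifs.
Amy1, upstream start (chr3:113577751-113578000, minus strand): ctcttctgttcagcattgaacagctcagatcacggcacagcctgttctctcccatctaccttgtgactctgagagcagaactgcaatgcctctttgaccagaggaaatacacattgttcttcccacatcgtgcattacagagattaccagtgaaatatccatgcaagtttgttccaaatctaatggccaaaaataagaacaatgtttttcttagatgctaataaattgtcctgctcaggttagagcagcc
Amy1, downstream start (chr3:113574763-113575012, minus strand): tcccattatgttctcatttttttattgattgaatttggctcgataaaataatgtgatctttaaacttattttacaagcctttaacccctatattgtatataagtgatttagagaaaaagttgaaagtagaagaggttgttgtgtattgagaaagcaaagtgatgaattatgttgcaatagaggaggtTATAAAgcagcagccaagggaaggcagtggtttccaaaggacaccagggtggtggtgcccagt
Gbe1 (chr16:70313699-70313948, plus strand): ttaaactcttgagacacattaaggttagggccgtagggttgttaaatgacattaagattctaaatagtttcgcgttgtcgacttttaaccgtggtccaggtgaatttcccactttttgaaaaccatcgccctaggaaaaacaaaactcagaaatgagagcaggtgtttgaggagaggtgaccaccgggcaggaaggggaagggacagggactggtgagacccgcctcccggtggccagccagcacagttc
The window of the downstream Amy1 start holds TATAAA from 63 to 58 bases before the start. The upstream Amy1 window and the Gbe1 window hold none of the 4 motifs searched, which says only that these letters are not in these 250 bases.

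The knockout animals differed among themselves, and the lowest and the highest array recurred in many of the genes but not in all. By the brightest probe set of each gene, KO-94 was the lowest of the 4 knockout arrays in 8 of the 9 genes, all but Fbp1, against 20.2% of all genes. The share was 28.9% among all genes with a difference below 0, as 5 of the 9 have, and 39.9% among genes called lower. KO-03 was the highest of the 4 in 6 of the 9 genes, Pck1, G6pc, G6pc3, Ugp2, Gys2 and Pygl, against 20.7% of all genes. The highest was KO-91 in Amy1 and KO-90 in Gbe1, and in Fbp1 KO-03 was the lowest and KO-94 the highest. Dimmer probe sets could differ. In the second Pck1 probe set KO-91 was the lowest, at 11.96 against 11.97 on KO-94. In the Ugp2 probe set with the largest difference KO-91 was the highest, at 8.88 against 8.72 on KO-03. Against the wild-type mean, KO-94 stood at -2.40 for Amy1, -1.51 for Gbe1, -1.28 for Gys2, -1.10 for Pygl and -0.67 for Ugp2. KO-03 stood at -2.07 for Amy1 and -0.997 for Gbe1 but at -0.40 for Pygl, -0.17 for the brightest Ugp2 probe set and 0.11 for Gys2. So KO-03, the knockout closest to wild type over all probe sets, was below every wild-type array in Amy1 and Gbe1 and inside the wild-type range in Gys2. With KO-94 left out, Amy1, Gbe1 and G6pc3 still passed. With KO-03 left out, 4 genes passed as lower, Amy1, Gbe1, Pygl and Gys2, and G6pc3 as higher.

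**Figure D3:**
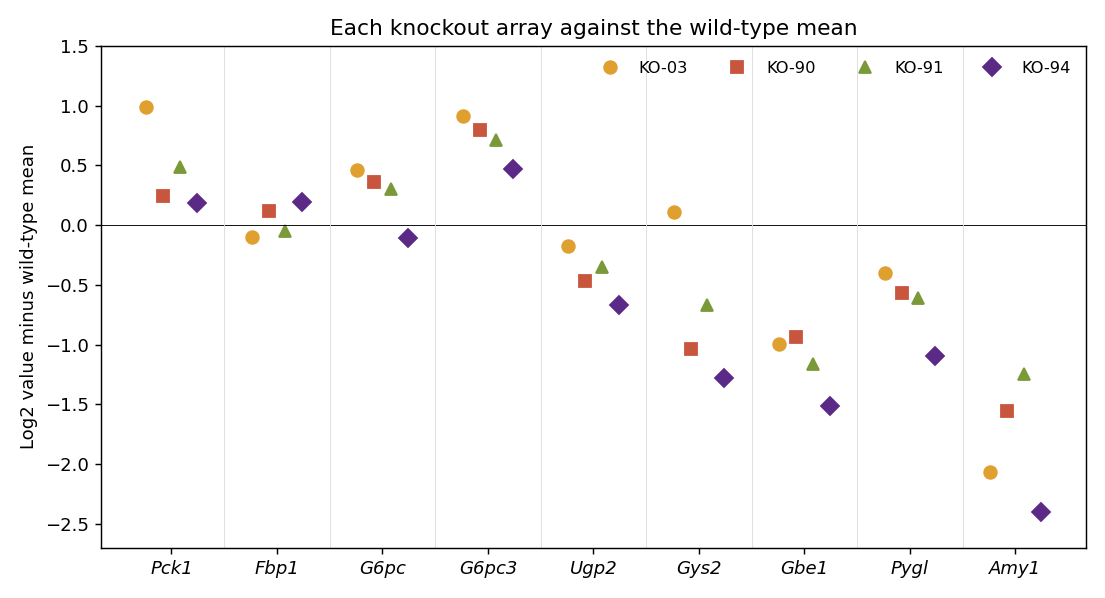
Log2 value of each knockout array minus the mean of the 3 wild-type arrays (y axis) for the 9 genes (x axis), with a symbol for each animal. Each gene is shown by its brightest probe set. KO-94 is the lowest knockout in every gene but Fbp1, from -2.40 in Amy1 to 0.47 in G6pc3, and KO-03 is above 0 for Gys2, where the other knockouts lie between -1.28 and -0.67.

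Isozymes made by other genes were next. Of 6 that were measured, 2 rose, 0 fell and 4 did not pass, with a median difference of 0.44. Over all genes 2.58% rose and 0.951% fell, with a median of 0.01. G6pc2 did not exceed the floor on any array, and Pygm did not on 1 wild-type array. Gys1, the glycogen synthase of muscle and other tissues, read 5.64, 5.85 and 5.56 on WT-27, WT-103 and WT-104, against 6.20, 6.62, 6.25 and 6.43 on KO-03, KO-90, KO-91 and then KO-94. The groups did not overlap, and the rise was 0.69 ± 0.14 (SE; limma adjusted p = 0.0285). Pygb, the brain form of phosphorylase, read 6.05, 5.87 and 6.22 in wild type and 6.60, 7.22, 7.05 and 7.80 in knockout. It rose by 1.12 ± 0.25 (SE; limma adjusted p = 0.0449), with KO-94 the highest array. The call of Gys1 was lost without any single array but KO-03, at limma adjusted p up to 0.107. That of Pygb was lost without WT-27, WT-103, WT-104, KO-90 or KO-91, at limma adjusted p up to 0.185, and with median centring. The muscle phosphorylase Pygm at 0.35 and the mitochondrial carboxykinase Pck2 at 0.52 did not pass (limma adjusted p = 0.162 and 0.288).

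Markers of other liver cell types were measured beside these genes. Of 6 measured hepatocyte markers 0 passed the limma test and 0 had an unadjusted p under 0.05, against 16.4% of all genes. Their summed linear level was 97945 to 105531 in wild type and 100276 to 105644 in knockout. Over all genes 2.58% rose and 0.951% fell. Of 8 stellate cell markers 4 rose, with sums of 3220 to 3636 in wild type and 4902 to 6392 in knockout. Of 6 measured cholangiocyte markers 4 rose, with sums of 151 to 174 and 354 to 813. Krt7, a duct marker, did not exceed the floor on any array. Of the 4 that rose, Tspan8 did not exceed it on 3 wild-type arrays, Krt19 and Epcam on 2 each and Cd24a on 1. The ratio of these sums therefore gives no size for the rise. Of 6 neutrophil markers 2 rose, with sums of 132 to 199 and 511 to 2251. Of the 6, 3 did not exceed the floor on any array, Mpo, Ltf and Camp. S100a8, which rose, did not exceed it on 1 wild-type array. In the Kupffer cell list (7 genes) and the endothelial list (6 genes) 0 passed. In each, 2 had an unadjusted p under 0.05, against the same 16.4% of all genes. Their sums were 4248 to 6162 and 5010 to 6864 for Kupffer cells and 1944 to 2224 and 1838 to 2266 for endothelium. The part of these cell types in the rises of G6pc3, Gys1 and Pygb was not tested.

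Other glycogen proteins showed no call. None of 20 measured genes for glycogen priming, phosphorylase kinase, phosphatase scaffolds and glycogen-bound proteins passed limma's test. Among all genes 2.58% passed as higher and 0.951% as lower, so few calls would be found in any list of this size. By the brightest probe sets of these 20 genes 0 had an unadjusted p under 0.05, against 16.4% of all genes, and their median difference was 0.08. Dimmer probe sets of the synthase kinase Gsk3b ran from -0.51 to 0.38. The one at 0.38 had an unadjusted limma p of 0.0057 and did not pass over all probe sets (limma adjusted p = 0.141). Smallest in p were the phosphatase scaffold Ppp1r3c at 0.49, the synthase kinase Gsk3a at 0.32, the glycogen-binding protein Stbd1 at 0.49 and the phosphoglucomutase Pgm1 at -0.19 (limma adjusted p from 0.314 to 0.424). Of these 20 genes, 6 did not exceed the floor on any array. Of 15 measured genes that feed carbon into gluconeogenesis or let glucose out, 0 passed limma's test and 5 had an unadjusted p under 0.05, against 16.4% of all genes. They were the glycerol channel Aqp9 at 0.30, the malate dehydrogenases Mdh1 at -0.28 and Mdh2 at 0.35, the mitochondrial carrier Slc25a11 at -0.30 and the glycerol phosphate dehydrogenase Gpd1 at 0.32, which was named after its value was seen. The limma adjusted p of these 5 lay between 0.168 and 0.290.

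Of 6 measured enzymes and regulators of glycolysis and pyruvate use, 1 rose, 0 fell and 5 did not pass. Over all genes 2.58% rose and 0.951% fell. These 6 do not all work against gluconeogenesis, so the list has no common direction. Pfkfb3, a kinase that makes an activator of glycolysis, read 4.32, 4.12 and 4.21 on WT-27, WT-103 and WT-104, all under the floor, and 5.97, 5.97, 6.60 and 5.66 on KO-03, KO-90, KO-91 and then KO-94. It was at least 2.21-fold higher in knockout (limma adjusted p = 0.00228), set against the floor, and its call held in the 16 alternative gene fits. Its second probe set passed too (limma adjusted p = 0.0430 for all probe sets), but it lay near the floor, which 2 wild-type arrays and 1 knockout array did not exceed, so no size is given for it. The liver pyruvate kinase Pklr had a wild-type mean of 8.45 ± 0.39 (SD, n = 3) and a knockout mean of 7.56 ± 0.32 (SD, n = 4). Its difference of -0.89 did not pass (limma adjusted p = 0.0653), although the groups did not overlap. It passed as lower with array weights, at -1.10 (limma adjusted p = 0.0156), without WT-104, at -1.11 (limma adjusted p = 0.0477), and with KO-03 and WT-104 both left out (limma adjusted p = 0.0415). The pyruvate dehydrogenase kinase Pdk2 at -0.46 and the regulatory protein Gckr at -0.29 did not pass either (limma adjusted p = 0.234 and 0.549).

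Of 25 hormone receptors, signalling proteins and transcription regulators of hepatic glucose output, 0 passed limma's test and 5 had an unadjusted p under 0.05, against the same 16.4% of all genes. Their median difference was -0.01. Among all genes 2.58% passed as higher and 0.951% as lower. The forkhead factor Foxo3 was at 0.56 (limma adjusted p = 0.0600), the pseudokinase Trib3 at 0.49 (0.0963), the fasting-induced factor Klf15 at 0.69 (0.139) and the insulin receptor Insr at -0.36 (0.184). The fifth was Mlxipl, the glucose-sensing factor ChREBP, at -0.94 (0.215), named after its value was seen. Foxo3 passed without KO-03, at 0.62 (limma adjusted p = 0.0379), and with a filter at a mean of 6 (limma adjusted p = 0.0450). With array weights and all 7 arrays kept, Foxo3 (0.0148), Klf15 (0.0259) and Trib3 (0.0401) passed as higher by limma adjusted p. With both KO-03 and WT-104 left out, Foxo3, Klf15 and Trib3 passed as higher and Mlxipl as lower.

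**Figure D4:**
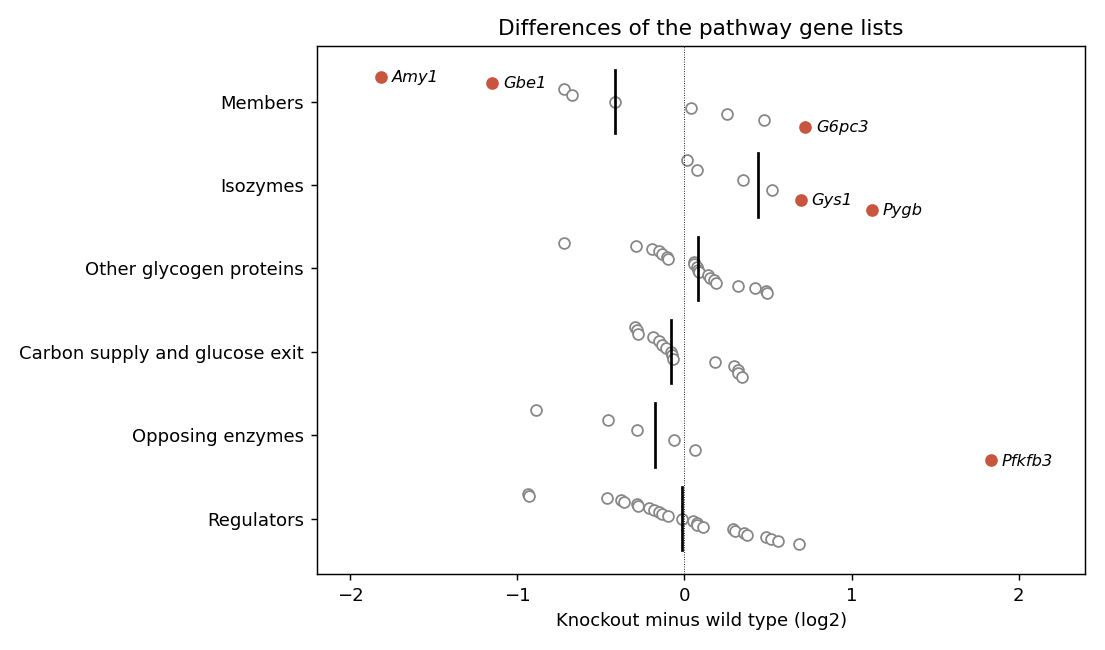
Knockout minus wild-type differences on the log2 scale (x axis) of the 9 genes and of 5 lists of related genes (y axis), 1 point per gene, with filled, named points for adjusted p under 0.05 over all genes and a black line at each list's median. Amy1 and Gbe1 lie to the left, G6pc3, Gys1, Pygb and Pfkfb3 to the right, and the list medians run from -0.42 to 0.44. The row labelled opposing enzymes holds the list of glycolysis and pyruvate use, whose genes do not all work against gluconeogenesis.

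The genes whose pattern over the 7 arrays came closest to each called gene were found by the root mean square difference of log2 values, each gene centred on its mean, among 11048 genes with a mean above the floor. For Amy1 they were Mreg (0.23), Gm32461 (0.24) and Gas1 (0.27), which differed by -1.39, -1.60 and -1.71 between the genotypes. For Gbe1 they were Phlda1 (0.12), the fructose-phosphorylating enzyme Khk (0.16) and Mfsd4b1 (0.20), at -1.14, -0.88 and -1.02. For G6pc3 they were Ifrd2 (0.08), the retinol dehydrogenase Rdh16 (0.10) and the leukocyte antigen Ptprc (0.10), at 0.58, 0.57 and 0.56. The 6 genes near Amy1 and Gbe1 passed the test and the 3 near G6pc3 did not (limma adjusted p from 0.0599 to 0.105). These likenesses include the genotype difference itself and are a description of 7 arrays.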

How the data were processed

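The deposited table holds log2 expression values for every probe set on each array, which the authors computed by RMA (background correction, quantile normalization across arrays, summary of probes) in Partek, per the design text and processing notes. Software versions are not given in the sources. Values lay between 2.20 and 14.89 and array medians between 4.65 and 4.71. Array values carry no read depth, so precision rests on the number of arrays and on the spread between them.

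Of 45101 probe sets, 64 controls were left out. Platform annotation gave 1 symbol for 34945 probe sets and several for 932. Each gene took its probe set of highest mean over the 7 arrays. The genotypes were compared in limma 3.58.1 under R 4.3.3 (two-sided, no covariates, Benjamini-Hochberg adjustment) over 18193 genes and, separately, over 45037 probe sets. The fit was tested on simulated data. Differences are knockout minus wild type. Animal numbers do not recur between genotypes, so nothing was paired. The labels do not say whether animals shared a litter or cage.

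The members, lists, floor and alternatives were chosen with earlier results of these data known. Named were the 9 genes, the called genes and the 4 of smallest p of each related list, and the 3 genes most like each called gene. Pfkfb1, Sds, Gyk and the pancreatic amylases were not analysed here as single genes. Promoters were searched with Python 3.11.15 and plots drawn with matplotlib 3.10.9.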

Additional observations from a re-analysis of the deposited data

How the results depend on the processing

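Amy1 kept its call in all 16 alternative gene fits, and G6pc, Pck1, Fbp1 and Ugp2 stayed without one. In fits that left out 1 array, the genes passing as lower numbered 1 to 4 (1 without WT-27 or WT-103, 4 without KO-03) and those passing as higher 0 to 1. Over probe sets the lower count was 0 to 4 and the higher 0 to 1. The differences ranged from 0.63 to 0.81 for G6pc3, -1.31 to -1.01 for Gbe1, -0.99 to -0.53 for Gys2, -0.76 to -0.53 for Pygl and -0.0078 to 0.088 for Fbp1, which changed sign without KO-94 (-0.0078 for the gene and its probe set). Called isozymes ranged from 0 to 2 and regulators called higher from 0 to 1. In the list of glycolysis and pyruvate use, genes called lower ranged from 0 to 1.

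Leaving out both KO-03 and WT-104, 4 genes and 4 probe sets passed as lower and 0 and 0 as higher. G6pc3 (0.68) lost its call and Gys2 (-1.07) and Pygl (-0.85) gained one. There 1 isozyme passed as higher (Pygb, while Gys1 lost its call), Pklr passed as lower, and 3 regulators passed as higher and 1 as lower. With renewed quantile normalization 0 genes and 0 probe sets passed as higher (G6pc3 at 0.66), and with a trended prior 0 probe sets did. With array weights 4 probe sets passed as lower, Pygl (-0.65), Pklr, Foxo3, Klf15 and Trib3 passed, and Fbp1 was at -0.0105 (its probe set -0.0120). Averaging the probe sets of each gene, 1 isozyme passed as higher. The cause of these changes was not tested. The fits that left out arrays also rest on fewer arrays, and the part of that in their changes was not tested either. No paired analysis was possible because the groups share no replicate number. No array stood apart among the 4 knockouts in any of the 15 probe sets by Dixon's criterion.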
